A study of Rattus norvegicus with 6 samples.

Results

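The nuclear-encoded subunits of the mitochondrial respiratory chain were examined by complex in peripancreatic fat of lean and obese rats. The members were all probe sets with exactly 1 annotated gene symbol that begins with Nduf, Uqcr or Atp5, that runs from Cox4 to Cox8 with further characters, or that is Sdha, Sdhb, Sdhc, Sdhd, Cyc1 or Cycs. This gave 97 probe sets of 31042 and 87 genes of 14217. By name they fell into 36 genes of complex I, 6 assembly factors of complex I (Ndufaf), 4 genes of complex II, 8 of complex III, 17 of complex IV and 16 of complex V. Cycs, the carrier cytochrome c, is measured here by probe sets shared with related loci and was not a member. Cox6c-ps1 is annotated as a transcribed pseudogene and entered through its name.

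The arrays came from 6 Wistar rats, a strain bred as an outbred stock. The lean group was 3 rats on a standard chow diet (lean 14, 18 and 19), and the obese group was 3 rats on cafeteria food of high caloric content for 30 days (obese 29, 32 and 42). Each rat gave 1 Affymetrix array of total RNA from the visceral adipose tissue around the pancreas, a whole tissue in which fat cells lie beside vascular, immune and connective tissue cells. The labels name no transgene, drug or further treatment. The labels give no age for the rats.

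The respiratory chain moves electrons from NADH and succinate to oxygen and pumps protons across the inner mitochondrial membrane. Complex I takes electrons from NADH, complex II is the succinate dehydrogenase of the citric acid cycle, complex III passes electrons from coenzyme Q to cytochrome c, complex IV hands them to oxygen, and complex V, the ATP synthase, uses the proton gradient to make ATP. Most subunits are encoded in the nucleus and a few core subunits in mitochondrial DNA. White fat cells hold fewer mitochondria than brown fat cells, in which Ucp1 lets the gradient run down as heat.

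Levels are log2 values of the array, so 1 unit is a 2-fold step, and every difference is obese minus lean on that scale. For each gene the probe set of highest mean signal was used, which was tested with limma over all 14217 genes, and was called at an adjusted p under 0.05. The array medians lay between 5.63 and 5.68 and arrays correlated at 0.980 to 0.991 over all probe sets, which are not independent replicates. The pancreatic acinar markers, which are digestive enzyme genes, had a mean level of 8.23 on lean 14 and of 4.80 to 5.13 on the other arrays. The controls' 3' minus 5' signal, a sign of RNA length, was 1.28 on obese 42 and 0.79 to 1.10 elsewhere (obese minus lean 0.125, exact two-sided permutation p = 0.40, smallest possible 0.10). The adipocyte markers had a mean level of 11.74 to 12.27 on all arrays, with 13 of 14 above 0 in the difference and a median of 0.30. In such whole tissue fewer cells of a type and less RNA per cell cannot be told apart.

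Genes of the chain are known for promoters that carry sites for NRF1, for ETS factors such as GABPA, for YY1 and for ESRRA. The windows of 4 members with such letters are shown as examples. The part of these factors in the levels was not tested. The windows are RefSeq promoters of the GRCr8 build, from 250 bases before to 50 after the first start listed for the gene. Capitals mark the motifs found, written 5' to 3' along the gene. Ndufa11 has the NRF1 letters GCGCATGCG in 2 overlapping copies, Uqcrc1 has those of NRF1 and of YY1 (AAGATGGCG), Cox8a has 2 reverse copies of the ETS letters CCGGAAG, and Atp5me has those of NRF1 and of the ETS motif. The NRF1 letters overlap their own reverse complement.
Ndufa11, chr9:1637364-1637663, plus strand: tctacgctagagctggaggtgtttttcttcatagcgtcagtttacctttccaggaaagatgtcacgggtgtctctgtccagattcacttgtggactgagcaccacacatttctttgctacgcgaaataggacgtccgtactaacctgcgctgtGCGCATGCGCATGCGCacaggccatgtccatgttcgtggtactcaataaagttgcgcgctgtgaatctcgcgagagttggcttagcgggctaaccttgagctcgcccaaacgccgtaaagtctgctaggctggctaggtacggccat
Uqcrc1, chr8:118467973-118468272, plus strand: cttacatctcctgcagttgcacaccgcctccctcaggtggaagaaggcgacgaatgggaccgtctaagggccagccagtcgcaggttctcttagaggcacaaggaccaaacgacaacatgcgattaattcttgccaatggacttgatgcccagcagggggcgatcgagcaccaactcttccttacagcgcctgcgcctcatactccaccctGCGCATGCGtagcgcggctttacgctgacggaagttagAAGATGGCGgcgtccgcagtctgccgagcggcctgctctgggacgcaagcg
Cox8a, chr1:213833574-213833873, minus strand: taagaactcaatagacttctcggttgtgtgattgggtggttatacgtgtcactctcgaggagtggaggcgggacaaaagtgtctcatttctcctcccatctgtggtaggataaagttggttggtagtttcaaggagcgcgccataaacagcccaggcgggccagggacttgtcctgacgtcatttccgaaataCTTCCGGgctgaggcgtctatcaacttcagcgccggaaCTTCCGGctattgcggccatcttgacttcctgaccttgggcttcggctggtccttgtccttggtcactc
Atp5me, chr14:1464610-1464909, plus strand: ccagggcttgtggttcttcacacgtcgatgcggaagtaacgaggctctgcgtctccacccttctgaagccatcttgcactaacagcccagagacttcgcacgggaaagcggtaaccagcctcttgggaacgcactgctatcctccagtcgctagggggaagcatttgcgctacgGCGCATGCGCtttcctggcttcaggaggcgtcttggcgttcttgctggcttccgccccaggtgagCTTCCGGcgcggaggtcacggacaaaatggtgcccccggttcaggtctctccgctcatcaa

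Promoters were listed for 78 of the 87 member genes. On either strand the NRF1 letters stood in 7 of the 78 (8.97%), against 1.66% of all 27457 promoters of the table and 2.82% of the 11733 that belong to genes on the array. The ETS letters stood in 22 (28.2%, against 9.22% and 15.1%), those of YY1 in 11 (14.1%, against 1.93% and 3.14%) and the ESRRA letters TCAAGGTCA in 2, Sdhd and Atp5mc3 (2.56%, against 0.412% and 0.213%). At least 1 of the 4 stood in 34 of 78 (43.6%, against 12.4% and 19.7%). Median GC content was 56.0% in the members, 52.3% in all promoters and 60.0% in those of genes on the array. The shares describe letters in these windows, and no binding was measured.

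Obese and lean rats were compared to ask whether the cafeteria diet goes with another level of respiratory chain transcripts in this depot. No member was called at an adjusted p under 0.05 (background 0.00703% of all genes) or under 0.10 (background 0.239%), and the smallest adjusted p among members was 0.23. At an unadjusted p under 0.05 there were 3 members with a positive difference, Cox6c-ps1, Uqcr11 and Cox8a (3 of 87, background 7.23%), and 0 with a negative one (background 6.18%). Neither share stands above the background. The groups did not overlap for 7 members, all with the obese arrays above (background 12.2%), namely Uqcr11, Cox8a, Cox6c-ps1, Ndufs6, Atp5me, Atp5f1e and Atp5f1d. For 0 members did the obese arrays lie below (background 8.18%).

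The differences were small. Across the 87 genes they ran from -0.34 to 0.34, 63 were above 0 (72.4%, background 53.7%) and the median was 0.062, a 1.04-fold difference, against 0.016 over all genes. For 52 of the 87 members the difference was smaller than its own standard error (SE), whose median was 0.11. Over all genes this held for 6983 of 14217, and the median SE was also 0.11. The sign of the median turned with 1 array. Without obese 32 it was -0.0065 with 41 of 87 above 0, and without obese 42 it was 0.14 with 79 of 87 above 0, while the median over all genes stayed at 0.019 and 0.016. Obese 32 was the array most often highest for the members and obese 42 the one most often lowest, so the direction of both shifts follows from that. Without lean 14 it was 0.041. With the adipocyte marker level as a covariate it was -0.13, with 21 of 87 above 0. That level was higher on every obese array than on any lean one, so the fit cannot separate it well from the diet. For Cox8a and Uqcr11 the SE was 0.19 and 0.20 in this fit, against 0.091 and 0.11 without the covariate.

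**Figure D1:**
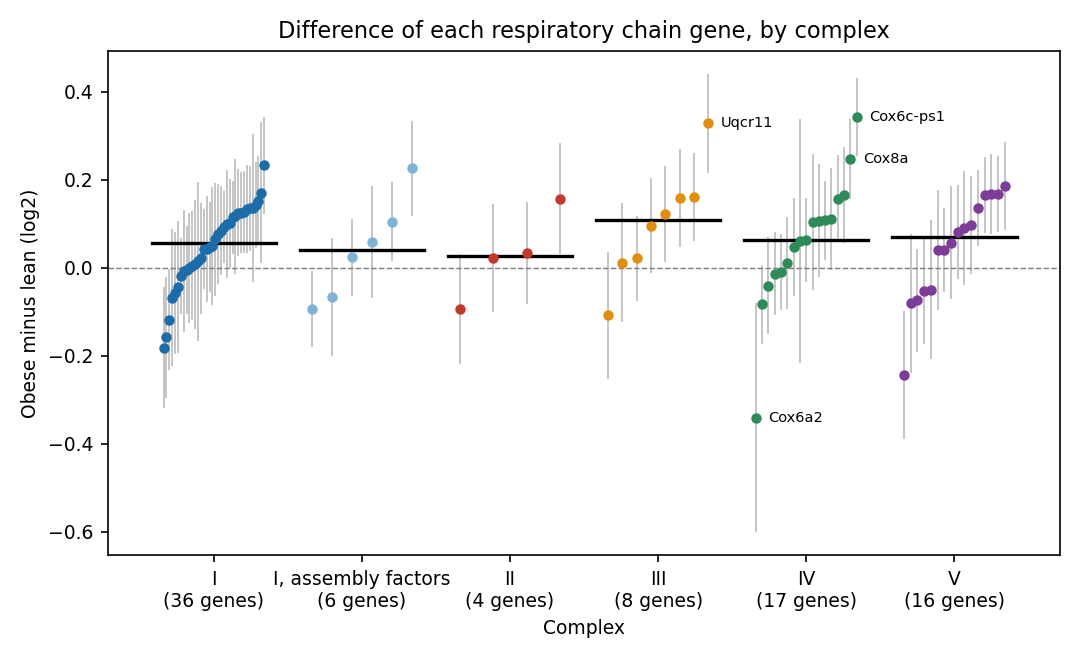
Obese minus lean difference (log2) of each of the 87 genes, grouped by complex on the horizontal axis; points are genes, grey bars 1 SE and black lines the median of the complex. The medians lie between 0.028 and 0.11, and the members named are those with an unadjusted p under 0.05 and Cox6a2, the lowest.

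What the members shared was their order over the arrays. For 65 of 87 genes (74.7%) obese 32 was the array with the highest level, against 19.9% of all genes, and for 45 (51.7%) obese 42 was the lowest, against 20.3% of all genes. Lean 14 was the lowest for a further 28 (32.2%, against 20.4%). Measured from each gene's own mean over the 6 arrays, the median member lay at 0.18 on obese 32, 0.052 on obese 29, -0.12 on obese 42, -0.087 on lean 14, 0.0045 on lean 18 and 0.0028 on lean 19. The corresponding median of all genes lay between -0.014 and 0.014. The high share on obese 32 was not particular to the members. That array was also highest for 9 of 12 citric acid cycle genes, 8 of 11 mitochondrial carriers and 9 of 14 adipocyte markers. For assembly factors of complexes II to V it was 15 of 34, and for regulators of mitochondrial biogenesis 3 of 20. Obese 42 was lowest for 5 of the 12 citric acid cycle genes, 4 of the 11 carriers and 0 of the 14 adipocyte markers.

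**Figure D2:**
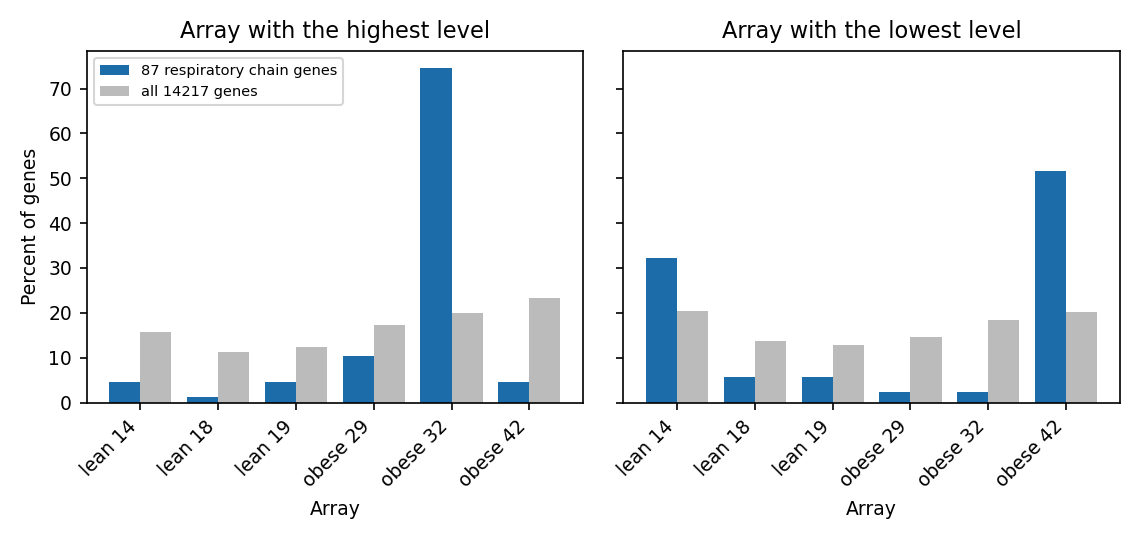
Share of genes (percent) for which each array had the highest level (left) or the lowest level (right), for the 87 members (blue) and all 14217 genes (grey). Obese 32 was highest for 74.7% of members and obese 42 lowest for 51.7%.

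Obese 32 and obese 42 were picked here as the arrays most often highest and lowest. A gap between them in these members follows from that choice. A gap between single arrays is also unlike a difference between group means. Obese 32 lay above obese 42 for 81 of 87 members (93.1%, against 48.2% of all genes), with a median gap of 0.29. The exceptions were all in complexes IV and V, namely Cox6c-ps1, Cox7a1, Cox6a2, Cox7a2l, Cox8b and Atp5f1e. The standard deviation (SD) was larger among obese than among lean arrays for 70 members (80.5%, against 63.2% of all genes), with medians of 0.16 and 0.074. Among genes with a mean level above 8 these shares were 84.5% of members and 70.4% of all genes. On obese 42 the 3' minus 5' difference was the highest of the 6 arrays, and its part in the lower levels there was not tested. With that difference as a covariate in the fit, the median of the members was 0.12 and 0 were called. The adipocyte markers did not follow the members on obese 42: their median lay at 0.14 from the gene's own mean on that array. On obese 32 that distance was 0.24, on obese 29 it was 0.083 and on the lean arrays it ran from -0.27 to -0.066.

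In each complex the median was highest on obese 32. There the median distance from the gene mean was 0.18 for complex I, 0.23 for complex II, 0.22 for complex III, 0.13 for complex IV and 0.17 for complex V, and on obese 42 it was -0.13, -0.18, -0.089, -0.081 and -0.16. Obese 42 had the lowest median in complexes I, II, IV and V, and lean 14 had it in complex III at -0.15. Obese 32 was the highest array for all 4 genes of complex II and all 8 of complex III, for 29 of 36 in complex I, 12 of 16 in complex V and 9 of 17 in complex IV. The assembly factors of complex I differed in the lean group, where lean 14 lay at 0.069 and lean 19 at -0.14. Whether the complexes differ from each other was not tested. Among members with a mean level above 8, obese 32 was highest for 58 of 71 (81.7%) and obese 42 lowest for 40 (56.3%), against 25.1% and 27.4% of all genes above that level. The level of 8 was chosen after the values were seen.

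**Figure D3:**
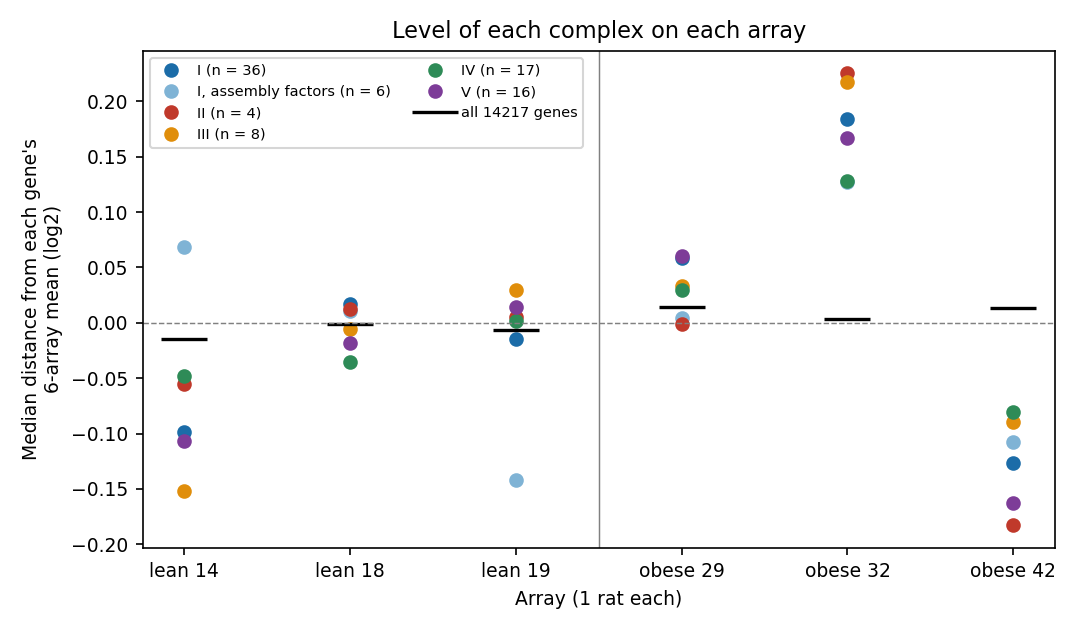
Median distance (log2) of the genes of each complex from their own 6-array mean, by array; coloured points are complexes with their number of genes and black dashes all 14217 genes. All points lie highest on obese 32, between 0.13 and 0.23, and on obese 42 all lie between -0.18 and -0.081.

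Complex I, the NADH dehydrogenase, had 26 of 36 differences above 0, a median of 0.057 and 0 genes at an unadjusted p under 0.05. Ndufc1, an accessory subunit, had the smallest p of the subunits, with levels of 10.18, 10.37 and 10.11 on lean 14, 18 and 19 and of 10.56, 10.49 and 10.30 on obese 29, 32 and 42. Lean 18 lay above obese 42, so the groups overlapped (difference 0.23, SE 0.11, limma adjusted p = 0.41). Ndufb5, also accessory, stood at 10.27, 10.33 and 10.32 on the lean and 10.53, 10.57 and 10.29 on the obese arrays (0.15, SE 0.10, adjusted p = 0.54). Obese 42 fell among the lean values, and the other obese arrays lay above them.

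Ndufa7 repeated that order at 9.80, 9.92 and 9.83 against 10.02, 10.11 and 9.85 (0.14, SE 0.098, adjusted p = 0.55). Its dimmer second probe set had lean values of 4.83 to 5.32 and obese values of 5.36 to 5.93, a difference of 0.57 (SE 0.18). Ndufa1, the subunit with the highest mean signal, had 11.69, 11.76 and 11.73 against 11.90, 11.73 and 11.68 (0.043, SE 0.091). Obese 29 lay above all lean arrays, obese 32 among them and obese 42 just below them. Ndufs6, an accessory subunit, was the 1 gene of the complex without overlap, with lean values of 9.18 to 9.33 and obese values of 9.33 to 9.39 (difference 0.093, SE 0.082), with lean 19 at 9.327 and obese 42 at 9.33.

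Ndufa11, a membrane subunit named after its values were seen, had the widest gap between obese 32 and obese 42 of all members. It had 9.46, 9.63 and 9.48 on the lean arrays and 9.66, 9.84 and 9.12 on the obese ones, so obese 32 and obese 42 lay 0.71 apart and on either side of the lean group. The group difference was 0.015 (SE 0.18). Ndufb6 had 10.14 to 10.17 on the lean arrays and 10.40, 10.58 and 9.90 on the obese ones, and Ndufa12 had 9.99 to 10.15 against 10.32, 10.49 and 9.87. Both were chosen after their values were seen. For these 3 genes obese 29 and 32 lay above every lean array and obese 42 lay below every lean array.

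The core subunits of complex I, which carry the flavin and the iron-sulfur clusters and are shared with bacteria, were taken as a group after the values were seen. The 6 on the array (Ndufs1, Ndufs3, Ndufs7, Ndufs8, Ndufv1 and Ndufv2) had a median difference of -0.0053 with 3 above 0. The 28 accessory subunits, without Ndufa4 and Ndufa4l2, had a median of 0.089 with 22 above 0. On obese 42, an array set apart for its low values in the members, all 6 core genes lay below the lean mean, with a median of -0.20. Of the accessory genes 20 of 28 did, with a median of -0.080. The share was 46.2% over all genes and 54.4% over all genes with a mean level above 8. The difference between these classes was not tested.

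Ndufb11, a membrane subunit, had the lowest difference of complex I, at 10.28, 10.27 and 10.13 against 10.21, 10.18 and 9.76 (-0.18, SE 0.14, adjusted p = 0.59). Obese 29 and 32 lay inside the lean range. Of the assembly factors, which build complex I and then leave it, Ndufaf4 had 7.74, 7.49 and 7.47 against 7.69, 7.87 and 7.81 (0.23, SE 0.11, adjusted p = 0.41), with lean 14 inside the obese range. Ndufaf3 had 8.17 to 8.32 against 8.28 to 8.43 (0.11, SE 0.090), and Ndufaf5 had 6.82 to 6.88 against 6.67 to 6.85 (-0.093, SE 0.086).

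Complex II had 3 of 4 differences above 0, a median of 0.028 and overlapping groups for every gene. Sdha, the flavoprotein that oxidises succinate, stood at 10.86, 10.87 and 10.97 on the lean and 10.79, 11.04 and 10.59 on the obese arrays (-0.094, SE 0.12, adjusted p = 0.77). Sdhb, the iron-sulfur subunit, had 10.73, 10.77 and 10.70 against 10.80, 10.95 and 10.55 (0.034, SE 0.12). For both, obese 32 and obese 42 bracketed the lean rats.

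Of the membrane anchors of complex II, Sdhc had 10.61, 10.81 and 10.76 against 10.88, 11.09 and 10.67 (0.16, SE 0.13), with lean 14 below obese 42. Sdhd had 11.04, 11.14 and 11.20 against 11.09, 11.39 and 10.97 (0.022, SE 0.12). A second probe set of Sdhd had 10.05 to 10.18 on the lean arrays and 10.03, 10.35 and 9.58 on the obese ones (-0.14, SE 0.18), so the sign of Sdhd depends on the probe set. All 4 genes lay below the lean mean on obese 42, with a median of -0.17, and above it in the mean of obese 29 and 32, with a median of 0.13. Of all genes 46.2% lay below it on obese 42 and 53.1% above it in the mean of obese 29 and 32. Obese 42 was set apart for its low values in the members, so such a split leans on that choice.

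Complex III had 7 of 8 differences above 0 and the highest median of the complexes, 0.11. Uqcr11, a small subunit of the complex, stood at 10.76, 11.04 and 11.06 on the lean arrays and 11.26, 11.39 and 11.19 on the obese ones. All obese arrays lay above all lean arrays, from 10.95 ± 0.17 (SD, n = 3) to 11.28 ± 0.10 (SD, n = 3), a difference of 0.33 (SE 0.11) or 1.26-fold that did not pass the threshold (adjusted p = 0.31). Lean 14 was the lowest array, and without it the difference was 0.23. With the adipocyte marker level as a covariate it was -0.058 (SE 0.20).

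Uqcrc1, a core protein of complex III whose promoter is printed above, had 10.32, 10.47 and 10.59 on the lean and 10.57, 10.72 and 10.58 on the obese arrays (0.16, SE 0.10, adjusted p = 0.51). Uqcrh, the hinge protein, had 10.69, 10.91 and 10.96 against 11.04, 11.12 and 10.88 (0.16, SE 0.11, adjusted p = 0.56). Uqcrq, the subunit with the highest mean signal, had 10.97, 11.14 and 11.16 against 11.23, 11.35 and 11.06 (0.12, SE 0.11). For all 3 genes the lowest array was lean 14, and the groups overlapped. Lean 14 was the lowest for 5 of the 8 genes of the complex, with a median of -0.15 from the gene mean, and without that array the median difference of complex III was 0.061 in place of 0.11. Lean 14 was also the array with the high acinar marker level. With that level as a covariate the median of complex III was 0.066, a fit that nearly repeats leaving out lean 14. It cannot tell that RNA from other traits of this array.

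Uqcrc2, the other core protein, went against the rest and was named after its values were seen. It had 11.10, 11.08 and 11.06 on the lean arrays and 10.93, 11.28 and 10.71 on the obese ones, so its SD was 0.018 among lean and 0.29 among obese rats. The difference was -0.11 (SE 0.14, adjusted p = 0.77). Its dimmer probe set had 7.84 to 8.17 on the lean arrays and 7.94, 8.18 and 7.06 on the obese ones (-0.29, SE 0.27). Obese 42 was the lowest array for both. Cyc1, the cytochrome c1 that hands electrons on to cytochrome c, differed by 0.096 (SE 0.11), and Uqcrfs1, the Rieske iron-sulfur protein, by 0.012 (SE 0.13).

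Complex IV, cytochrome c oxidase, had 12 of 17 differences above 0 and a median of 0.063. Cox8a, the widely expressed form of subunit VIII, had 11.80, 11.998 and 11.93 on the lean arrays and 12.16, 12.22 and 12.09 on the obese ones. All obese arrays lay above all lean arrays, from 11.91 ± 0.10 (SD, n = 3) to 12.16 ± 0.064 (SD, n = 3), a difference of 0.25 (SE 0.091) or 1.19-fold that did not pass the threshold (adjusted p = 0.33). With each array left out in turn the difference ran from 0.19 to 0.29, and with the adipocyte marker level as a covariate it was 0.040 (SE 0.19).

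Cox6c-ps1 had the smallest p of all members. Its 1 probe set gave 4.84, 4.72 and 4.92 on the lean and 5.18, 5.14 and 5.197 on the obese arrays (0.34, SE 0.088, 1.27-fold, adjusted p = 0.23). Its signal lies below the median of each array, and short probes may not tell a pseudogene's transcript from its parent's, so the value is uncertain. Cox6c itself had 11.86, 11.86 and 11.91 against 12.03, 12.003 and 11.78 (0.063, SE 0.095), with obese 42 below the lean arrays.

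Several subunits of complex IV exist as a widely expressed form and as one typical of heart and skeletal muscle, and the pairs were read side by side with no comparison of level between probe sets. Cox4i1, which had the highest mean signal of the complex, stood at 12.13, 12.18 and 12.37 against 12.30, 12.51 and 12.20 (0.11, SE 0.12), and its relative Cox4i2, known from lung, at 5.04, 4.85 and 5.22 against 4.86, 5.34 and 5.24 (0.10, SE 0.15). Cox6a1 had 11.01, 11.14 and 11.08 against 11.31, 11.37 and 11.05 (0.17, SE 0.11, adjusted p = 0.53). Obese 42 again fell among the lean arrays.

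Cox6a2, the muscle form, had the lowest difference of the 87 members, and it came from 1 array. The values were 4.70, 4.68 and 5.69 on lean 14, 18 and 19 and 4.59, 4.73 and 4.73 on obese 29, 32 and 42 (-0.34, SE 0.26, adjusted p = 0.59), so only lean 19 stood high. Without lean 19 the difference was -0.0072. On lean 19 the skeletal muscle markers had a mean level of 5.13 over 20 genes, against 4.69 to 4.90 on the other arrays. A few genes made that mean: lean 19 was the highest array for 7 of the 20 and the lowest for 2, and the list's median distance from the gene mean was 0.035 there, against 0.049 on obese 29 and 0.060 on obese 32. Of 3 markers picked for their high value on lean 19, the actin Acta1 was at 7.21 there against 3.85 to 6.10 elsewhere, the creatine kinase Ckm at 5.46 against 4.50 to 4.73 and the troponin Tnnc2 at 6.36 against 3.995 to 4.79. The part of muscle RNA in the Cox6a2 value was not tested.

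The other muscle forms did not share that peak on lean 19. Cox7a1 had 4.73, 4.76 and 4.77 on the lean and 4.74, 4.96 and 5.03 on the obese arrays (0.16, SE 0.099, adjusted p = 0.52). Cox8b had 4.26, 4.29 and 4.22 against 4.24, 4.17 and 4.34 (-0.0089, SE 0.086). Every value of Cox8b lay below the lower quartile of the arrays (4.415 to 4.49). Those of Cox7a1 and Cox4i2, and of Cox6a2 except on lean 19, lay below the array medians, so these differences are uncertain. Cox7a1 and Cox8b are also known from brown fat. The thermogenic adipocyte markers, 12 genes that include both, had a mean level of 5.24 to 5.50 and 7 differences above 0, and Ucp1 lay between 3.997 and 4.33 on all arrays. The partner of Cox7a1, Cox7a2, had no probe set of its own.

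Cox6b1 had 11.43, 11.41 and 11.43 against 11.48, 11.57 and 11.25 (0.011, SE 0.10). Cox6b2, known from testis, had the largest SE of the members, at 7.05, 7.17 and 6.82 against 7.76, 6.74 and 6.72 (0.062, SE 0.28). Obese 29 stood high and the other obese arrays lay below all lean arrays. Without obese 29 the difference was -0.28, and without obese 42 it was 0.24. Cox7a2l, a factor that joins complexes III and IV into supercomplexes and was named after its values were seen, had 10.78 to 10.82 on the lean arrays and 10.78, 10.58 and 10.77 on the obese ones (-0.083, SE 0.090). It was 1 of 2 members with obese 32 lowest, Cox8b being the other.

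**Figure D4:**
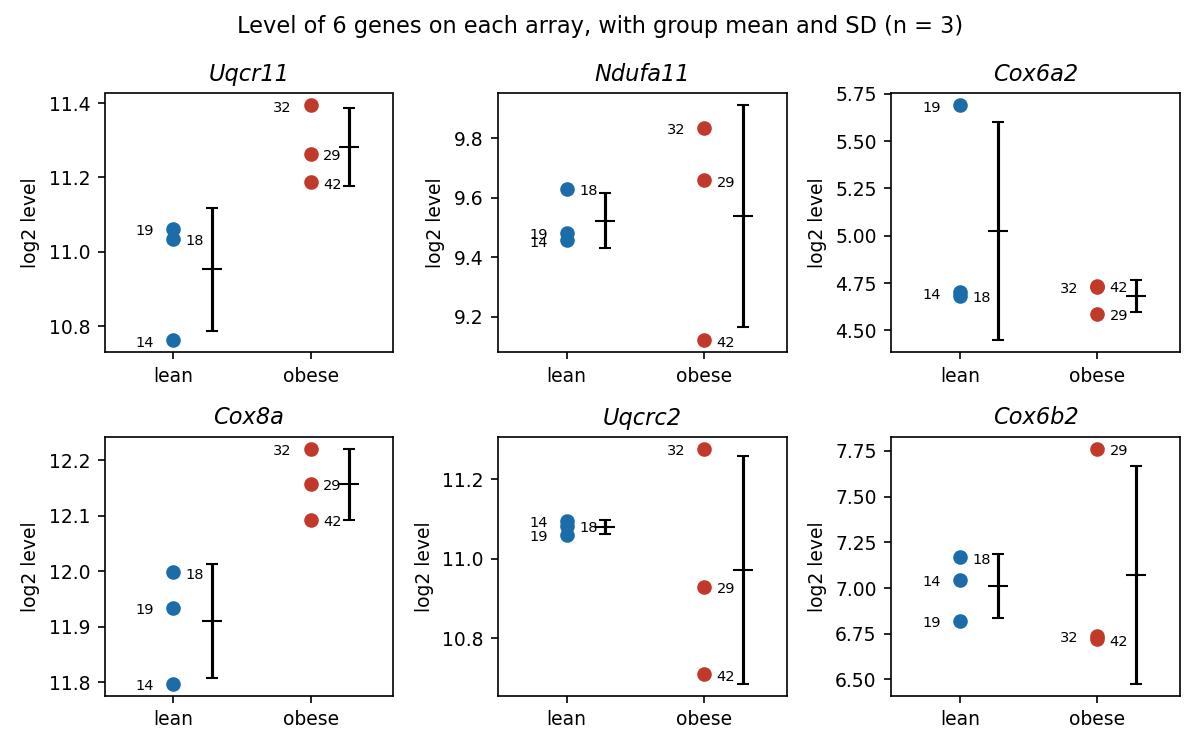
Level (log2) of 6 genes on each array, lean in blue and obese in red, labelled by rat, with the group mean (black dash) and SD (whiskers, n = 3) beside the points. Uqcr11 and Cox8a lie higher on every obese array than on any lean one, Ndufa11 and Uqcrc2 split between obese 32 and obese 42, and Cox6a2 and Cox6b2 each have 1 high array, lean 19 and obese 29.

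Ndufa4, kept with complex I by its name although it is now counted as a subunit of complex IV, had 11.45, 11.58 and 11.56 on the lean and 11.66, 11.78 and 11.30 on the obese arrays (0.050, SE 0.13). Its relative Ndufa4l2, known as a target of hypoxia signalling, had 5.85, 6.08 and 6.24 against 5.69, 6.06 and 5.94 (-0.16, SE 0.14, adjusted p = 0.64). Both pairs of groups overlapped. For Ndufa4 obese 32 and obese 42 again lay on either side of the lean arrays.

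Complex V, the ATP synthase, had 11 of 16 differences above 0 and a median of 0.069. Atp5me, a small subunit of the membrane part whose promoter is printed above, had 9.34, 9.39 and 9.43 on the lean and 9.65, 9.53 and 9.49 on the obese arrays (0.17, SE 0.086, adjusted p = 0.44). Atp5f1e, the epsilon subunit of the catalytic head's stalk, had 11.58, 11.67 and 11.77 against 11.81, 11.84 and 11.87 (0.17, SE 0.087, adjusted p = 0.45). In both genes every obese array lay above every lean array, and in Atp5f1e obese 42 was the highest of all. Atp5f1d, the delta subunit beside it in the stalk, also had no overlap, at 10.47 to 10.59 against 10.61 to 10.76 (0.14, SE 0.087).

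Atp5f1b, the catalytic beta subunit and the one with the highest mean signal of complex V, had 12.17, 12.26 and 12.42 against 12.45, 12.56 and 12.39 (0.19, SE 0.10, adjusted p = 0.46), with lean 19 above obese 42. The alpha subunit Atp5f1a had 11.49 to 11.55 on the lean and 11.50, 11.74 and 11.11 on the obese arrays (-0.081, SE 0.16). Atp5mc3, 1 of the 3 genes for the rotor's c subunit, had 12.07, 12.22 and 12.24 against 12.17, 12.34 and 12.16 (0.042, SE 0.096). Its partners Atp5mc1 and Atp5mc2 had no probe set of their own.

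Atp5if1, the inhibitor that stops the ATP synthase from running backwards, had the lowest difference of complex V and was named after its values were seen. It had 8.88, 8.61 and 8.57 on the lean and 8.67, 8.47 and 8.20 on the obese arrays (-0.24, SE 0.14, adjusted p = 0.49). Lean 14 was the highest array and obese 42 the lowest, and obese 29 lay inside the lean range. Its 2 dimmer probe sets differed by -0.16 and -0.10.

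Of the 87 genes, 78 had 1 probe set and 9 had several, and for 3 of these the sign depended on the probe set. Besides Sdhd they were Ndufa9, an accessory subunit of complex I (-0.12 with the brighter probe set and 0.087 with the dimmer), and Ndufv3 (0.13 and -0.084). The brighter probe set of Ndufa9 had 9.93 to 9.95 on the lean arrays and 9.81, 10.03 and 9.62 on the obese ones. Ndufv3 had 9.56 to 9.65 against 9.62 to 9.84. None of these differences passed the threshold.

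Without obese 42, the array with the lowest members, 9 of 87 members had a positive difference at an unadjusted p under 0.05. That share is near the background of 8.11%, and still 0 were called, with a smallest adjusted p of 0.22. By complex the medians were then 0.15 for complex I, 0.13 for complex II, 0.17 for complex III, 0.13 for complex IV and 0.17 for complex V. Without obese 32 they were -0.012, -0.078, 0.028, 0.025 and -0.023. Both arrays were picked from the members' own values. Medians that rise without obese 42 and fall without obese 32 follow from that choice. The labels mark obese 42 as the 1 array that is not a renewed analysis of an earlier sample. Its part in the order of the arrays was not tested.

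The machinery around the chain was read from lists chosen with earlier results of these data known, and 0 of its genes were called. Of the other assembly factors of complex I, 5 of 9 differences were above 0 (median 0.024). The 2 with the smallest p were Foxred1, at 6.62 to 6.78 against 6.79 to 7.04 (0.23, SE 0.099, adjusted p = 0.38), and Timmdc1, at 8.15 to 8.28 against 8.32 to 8.46 (0.17, SE 0.087, adjusted p = 0.44). The obese arrays lay above the lean ones for both. Of 34 assembly factors of complexes II to V, 19 were above 0 (median 0.013), with 5 positive (background 7.23%) and 1 negative (background 6.18%) at an unadjusted p under 0.05. Coa5, for complex IV, had 10.38 to 10.46 against 10.60 to 10.78 (0.25, SE 0.087, adjusted p = 0.32), and Sdhaf1, for complex II, had 9.32 to 9.37 against 9.52 to 9.63 (0.23, SE 0.080, adjusted p = 0.32).

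Coenzyme Q synthesis had 9 of 12 differences above 0 (median 0.12). Coq10b, which binds coenzyme Q, had 8.03, 8.10 and 8.16 on the lean and 8.52, 8.76 and 8.48 on the obese arrays (0.49, SE 0.10, adjusted p = 0.18), and Coq8a had a difference of -0.35 (SE 0.21, adjusted p = 0.50). The groups were apart for Coq10b and overlapped for Coq8a. The citric acid cycle, which feeds the chain, had 8 of 12 above 0 (median 0.15), with its median on obese 32 at 0.22 from the gene mean and on obese 42 at -0.12. Ogdh, of the oxoglutarate dehydrogenase complex, differed by 0.35 (SE 0.12, adjusted p = 0.31) and Idh3a, of the NAD-linked isocitrate dehydrogenase, by 0.40 (SE 0.16, adjusted p = 0.36).

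Among 20 regulators of mitochondrial biogenesis and mitochondrial DNA, 10 differences were above 0 (median 0.0058). Esrra, the nuclear receptor whose motif was searched, had 6.81, 6.80 and 6.92 on the lean and 7.07, 7.22 and 7.39 on the obese arrays (0.38, SE 0.11, adjusted p = 0.25). Ppargc1b, a coactivator of it, had 5.96, 6.04 and 5.89 against 6.29, 6.32 and 7.04 (0.59, SE 0.20, adjusted p = 0.31). Both had every obese array above the lean ones with obese 42 highest. Over the 20 regulators obese 42 was the highest array for 9 and the lowest for 7. Among the 7 were Ppargc1a, at 5.05 there (difference -0.34, SE 0.20), and Gabpa, at 7.24 (-0.25, SE 0.14). The mitochondrial carriers had 8 of 11 above 0 (median 0.038), and those of smallest p were the import pore genes Tomm40 (0.16, SE 0.10, adjusted p = 0.52) and Tomm22 (0.14, SE 0.090, adjusted p = 0.53). Of the subunits encoded in mitochondrial DNA, COX1 and COX2 were on the array under those symbols. Their levels lay between 13.67 and 13.90 on all arrays, with differences of 0.0004 (SE 0.084) and 0.025 (SE 0.085).

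Marker lists of other cells had differences of their own, with 0 genes called. Of the macrophage markers 16 of 16 had a difference below 0 (median -0.62), with a mean level of 8.32 on obese 42 and 8.88 to 9.55 elsewhere. For T and NK cells it was 14 of 15 (median -0.61), for B cells 7 of 7 (median -0.42) and for mast cells 10 of 10 (median -0.72). For acinar cells it was 21 of 23 (median -1.03), which rests on lean 14: the mean levels of lean 18 and 19, 4.80 and 4.84, lay below those of the obese arrays, 4.94 to 5.13. Of the skeletal muscle markers 13 of 20 were above 0 (median 0.12). Their part in the differences of the respiratory chain was not tested. The adipocyte level follows the diet groups and the acinar level follows lean 14, so the fits with those covariates cannot decide it. With the acinar level the median of the members was 0.038, near the 0.041 without lean 14.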

How the data were processed

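Whole peripancreatic fat of 6 rats was hybridised to 1 array each. The deposited log2 values were made by the authors with RMA and affy, per the submitters' processing notes; their versions and the chip definition were not given in the sources used here. By the labels every array is another rat, and p-values reflect variation among these rats and their handling. Of 31042 probe sets without controls (57 left out), the platform annotation gave 20826 exactly 1 symbol, 436 several and 9780 none. For each of 14217 genes the probe set of highest mean signal was used, and dim ones were kept. The 9 probe sets that members share with another locus were kept apart. Precision is limited by having 3 arrays a group.

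Obese minus lean was tested with limma 3.58.1 in R 4.3.3 (lmFit, eBayes, two-sided, no covariate), adjusted by Benjamini-Hochberg over all genes, or over all probe sets for second and shared probe sets. The test was checked on simulated data. Tables used Python 3.11.15 and pandas 2.3.3, the permutation test went over all splits of the arrays in Python, and plots used matplotlib 3.10.9. The members, gene lists and cell markers were chosen with earlier results of these data known. In each complex the 3 genes of smallest p, the one with the highest mean level, the isoform pairs and genes whose probe sets disagree were named, as were the 2 of smallest p in each list. Ndufs6, Ndufb3, Ndufb6, Ndufa12, Ndufa11, Ndufb11, Cyc1, Uqcrfs1, Uqcrc2, Cox6c, Cox7a2l, Atp5f1a, Atp5f1d and Atp5if1 were chosen after their values were seen, or to explain a count. Alternatives were array weights, quantile normalization, median centring, a robust prior with an intensity trend, every probe set, the mean of probe sets, only genes above the median level, each array left out, lean 14 and obese 42 left out, and the 3' minus 5' difference, acinar level or adipocyte level as a covariate.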

Additional observations from a re-analysis of the deposited data

How the results depend on the processing

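No member was called under any of the alternatives run, with limma on 3 arrays a group. The median over all members kept its sign except without obese 32 and with the adipocyte marker level as a covariate. Under that covariate the medians were -0.13 for all members, -0.18 for complex I, -0.28 for complex II, -0.18 for complex III, -0.018 for complex IV and -0.11 for complex V. The adipocyte level was higher on every obese array than on any lean one, so this fit cannot separate it well from the diet. Of the single complexes, the median of complex II was -0.012 with the mean of probe sets, and that of the assembly factors -0.016 without lean 19. Members with a positive difference at an unadjusted p under 0.05 numbered 0 with that covariate, 5 without lean 14 and obese 42, and 1 to 9 with each array left out; those with a negative one numbered 1 with the covariate and 0 to 1 with each array left out. Of the named genes' values, 638 kept their direction and 52 reversed. With the adipocyte covariate the reversed differences were Atp5f1b -0.094, Atp5mc3 -0.25, Cox4i1 -0.24, Cox4i2 -0.28, Cox6a1 -0.018, Cox6b1 -0.089, Cox7a1 -0.0068, Cox8b 0.087, Ndufa4 -0.21, Ndufa7 -0.020, Sdhb -0.12, Sdhc -0.20, Sdhd -0.36, Uqcr11 -0.058, Uqcrc1 -0.16, Uqcrh -0.17, Uqcrq -0.18, Atp5if1 0.12, Cox7a2l 0.057, Ndufa11 -0.28, Ndufa12 -0.046, Ndufb3 -0.19, Ndufb6 -0.10 and Ndufv3 -0.0092. With the acinar covariate they were Atp5mc3 -0.0038, Sdhd -0.016 and Ndufa11 -0.021. The mean of probe sets gave Sdhd -0.057, median centring Cox8b 0.016, quantile normalization Cox6b1 -0.0023 and Sdhd -0.021, and leaving out lean 14 and obese 42 gave Uqcrc2 0.031. With each array left out the ranges that crossed 0 were Atp5mc3 -0.017 to 0.074, Sdhd -0.097 to 0.11, Cox8b -0.056 to 0.034, Cox6b2 -0.28 to 0.24, Cox6b1 -0.058 to 0.11, Ndufa1 -0.021 to 0.087, Ndufa4 -0.050 to 0.19, Sdhb -0.059 to 0.14, Sdha -0.21 to 0.013, Ndufa11 -0.13 to 0.22, Ndufb6 -0.0065 to 0.33 and Uqcrc2 -0.26 to 0.023. The cause was not tested. No paired analysis was possible because no rat number is shared between the groups.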

Other observations

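Probe sets that a subunit shares with a related locus were outside the rule, and their values cannot be assigned to 1 gene. For the c subunit of the ATP synthase, the probe set of Atp5mc1 and Atp5mc1l1 had 10.09, 9.94 and 9.84 on lean 14, 18 and 19 and 9.80, 9.77 and 9.48 on obese 29, 32 and 42 (-0.27, SE 0.12, limma adjusted p = 0.43). That of Atp5mc2 and Atp5mc2l1 had 9.80, 9.89 and 9.87 against 9.85, 9.61 and 9.37 (-0.25, SE 0.13, adjusted p = 0.50). All obese arrays lay below the lean ones for the first and not for the second.

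Cytochrome c, with the probe set of Cycs, Cycsl1 and Cycs-ps9, had 11.18, 11.46 and 11.40 against 11.52, 11.87 and 11.49 (0.28, SE 0.13, adjusted p = 0.46), with every obese array above every lean one. The second probe set of those loci had 10.20, 10.43 and 10.27 against 10.56, 10.83 and 10.10 (0.19, SE 0.18) and overlapped. The probe set of Cox5a and an uncharacterised locus differed by 0.17 (SE 0.12), that of Uqcrb and Uqcrbl1 by 0.18 (SE 0.10), that of Ndufs5 and Ndufs5-ps2 by 0.14 (SE 0.10), that of Cox7a2 and Cox7a2l2 by 0.088 (SE 0.11) and that of Ndufa10 and Ndufa10l1 by 0.0033 (SE 0.18). Obese 32 was the highest array for the first 4 of these 5.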
